A study of Mus musculus with 6 samples.

Results

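Zinc exporters of the Slc30 family, the metallothioneins Mt1 and Mt2 and the zinc-sensing transcription factor Mtf1 were described in TM3 cells, a mouse line derived from testicular Leydig cells. The samples were exposed for 24 h to 10 µM 4-nitrophenol (PNP, written nPNP in the labels) or to 0 µM, with 3 samples in each group. Separate cultures are not stated by the labels, and the spread behind each p-value may therefore be technical only. Expression was read on 6 Agilent arrays with 1 channel, 1 per sample, which shared a slide and a scan. The members were 10 of the 23462 genes with a named probe, found through the accession that each probe carries, and they had 14 probes among 56605. The set was chosen because Slc30a2 had a large estimate in this same comparison of PNP with control samples. The differences of the members between the groups are therefore given as a description. The members took part in the fit over all genes, but nothing is read from its outcome for them.

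Zinc is held low in the cytosol. Most SLC30 proteins, also called ZnT, carry it out of the cytosol, across the plasma membrane or into vesicles and the Golgi. SLC39 proteins, also called ZIP, carry it in. Metallothioneins are small proteins rich in cysteine that bind zinc and copper, and their genes are classic targets of MTF1, which senses free zinc and binds metal response elements in promoters. The testis is rich in zinc, which is needed for sperm formation.

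Signals are given as scaled log2 signals, the log2 processed signal minus the 75th percentile of its array. On this scale levels of different probes cannot be compared. All 14 member probes were well above background on all 6 arrays, and none was saturated. Spots that the scanner software marked as outliers took 11.54% to 13.2% of spots on PNP arrays and 6.53% to 9.07% on control arrays. The 75th percentile of the processed signal was 4503 to 5286 on PNP arrays and 5362 to 5798 on control arrays. These measures moved with the groups, and their part in the results was not tested. All control arrays and PNP array 1 lay in slide row 1, and PNP arrays 2 and 3 in slide row 2. Slide row thus went largely with the groups, and its part was not tested either. Outlier spots were left out, so Slc30a1, Slc30a4 and Slc30a7 lacked the 2 values per group that the fit needed, and 7 of the 10 members entered it. Of the Leydig markers Star and Nr5a1 were above background on all 6 arrays. Lhcgr and Cyp11a1 were above it on none, Hsd3b1 on at most 1 and Cyp17a1 on at most 5, and Insl3 had no named probe. Summed marker signals, relative to the 75th percentile, overlapped between the groups. Unlike the fit, these sums kept outlier spots, also those that left Wt1, Ddx4 and Sycp3 out of the fit. They ran from 0.361 to 0.448 with PNP and from 0.360 to 0.375 in controls for 6 Leydig markers, and from 5.41 to 6.34 with PNP and from 4.54 to 6.38 in controls for 7 Sertoli markers. They ran from 1.63 to 1.85 with PNP and from 1.46 to 2.28 in controls for 6 germ cell markers, and from 3.90 to 4.85 with PNP and from 3.49 to 4.17 in controls for 6 macrophage markers. Macrophage markers Csf1r and Cd68 were above background on all 6 arrays, while Adgre1, Ptprc, Cd163 and Mrc1 were above it on none. Sertoli markers Sox9, Wt1 and Rhox5 were above it on all 6, and Amh, Fshr, Dhh and Gata1 on none. Germ cell markers Ddx4 and Sycp3 were above it on all 6, Tnp1 on at most 5, Dazl on at most 1, and Prm1 and Acrv1 on none.

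Slc30a2 encodes ZnT2, which loads zinc into vesicles and is best known for supplying zinc to milk. Its scaled log2 signal was -3.00, -3.48 and -3.55 on PNP arrays 1, 2 and 3, against -4.22, -4.26 and -4.56 on control arrays 1, 2 and 3. All PNP values lay above all control values, with PNP array 1 the farthest up. The means were -3.35 ± 0.30 with PNP and -4.35 ± 0.18 in controls (SD, n = 3 each). The difference of 1.00 (SE 0.16) corresponds to 2.00-fold and ranked 5 among 13138 genes ordered by signed difference from the highest. Since this value chose the set, it supports nothing by itself.

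**Figure D1:**
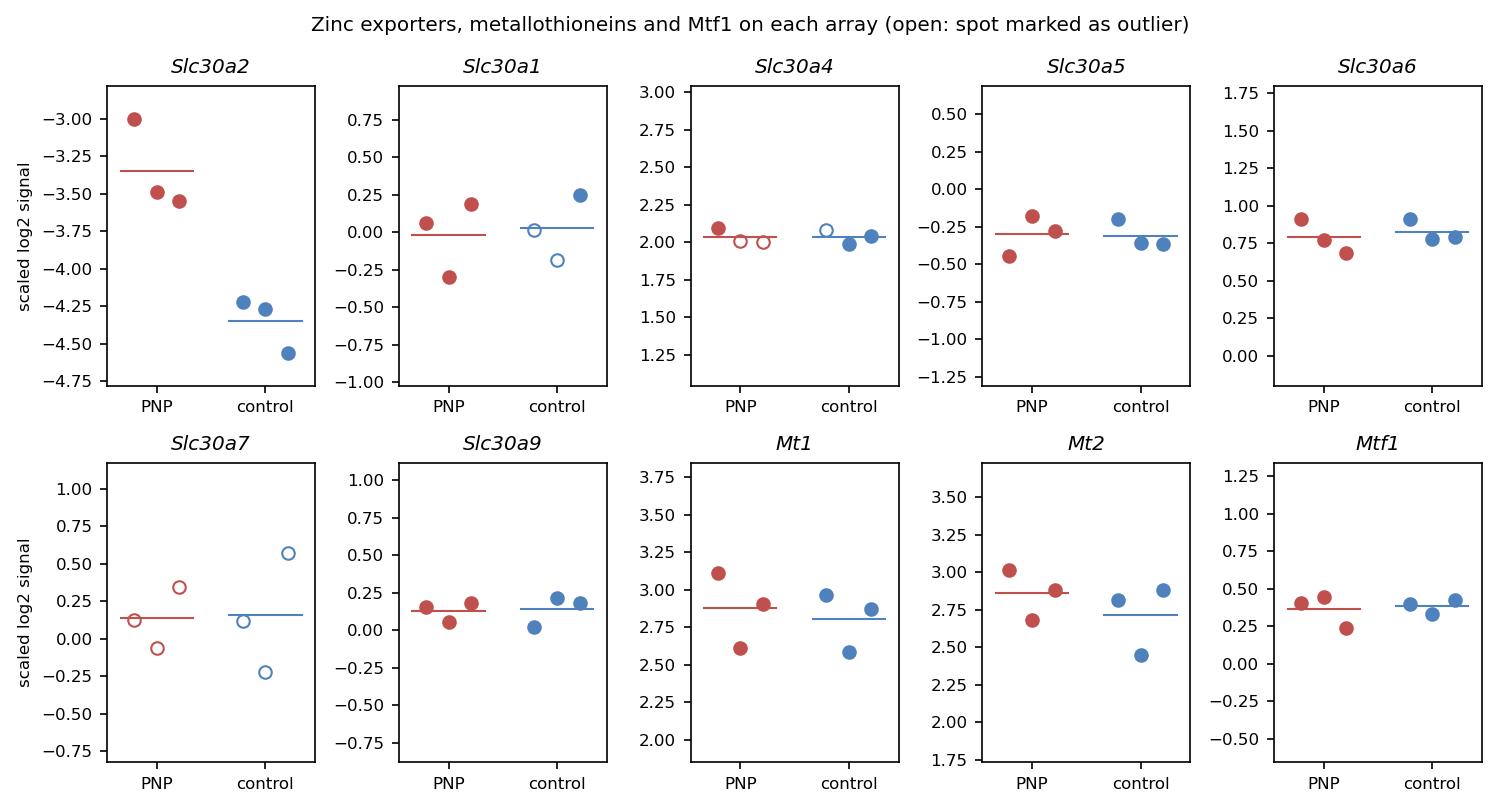
Scaled log2 signal of each member on each array (vertical axis, log2 units, the same span of 2 units in every panel), PNP left and control right, each point 1 array in the order 1 to 3 and each line the mean of 3. Open points are spots marked as outliers. Slc30a2 is the panel in which the groups do not overlap, with PNP values from -3.55 to -3.00 and control values from -4.56 to -4.22.

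Before any scaling its processed signal was 562, 472 and 430 on the PNP arrays, against 288, 289 and 246 on the control arrays. The scanner software's own error of these signals ran from 42.0 to 50.3 with PNP and from 31.0 to 34.3 in controls. The dimmest probe counted as well above background had a signal of 112 to 118 on PNP arrays and 119 to 122 on control arrays. Slc30a2 stood at the 22.2 to 26.0 percentile of detected probes on PNP arrays and at the 11.1 to 14.4 percentile on control arrays. These are the signals behind the scaled values and not a further measurement. The local background around the spot was 68 to 90 units on PNP arrays and 79 to 91 on control arrays, overlapping between the groups.

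**Figure D2:**
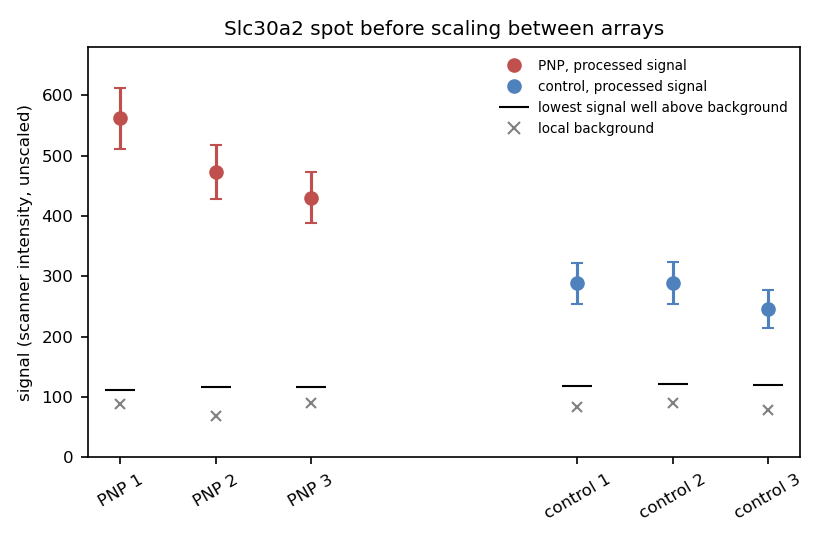
Processed signal of the Slc30a2 spot on each array in unscaled scanner units (vertical axis, from 0), with the scanner software's error as bars, PNP left. Black dashes give the lowest signal counted as well above background and grey crosses the local background. PNP signals run from 430 to 562 and control signals from 246 to 289.

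No Slc30a2 spot was marked as an outlier, and only 1 named probe carried this gene, so there was no second named probe to set against it. Probes without a gene name were not examined. The 10 usable spots within 2 rows and 2 columns of it had a median log2 difference of 0.06, from -0.18 to 0.39. Values within even and odd columns of the slide describe the same 6 signals, with 1 array on one side of each comparison. In even columns the Slc30a2 means were -3.28 with PNP (n = 2) and -4.26 in controls (n = 1), a difference of 0.99. In odd columns they were -3.48 with PNP (n = 1) and -4.39 in controls (n = 2), a difference of 0.90. As all PNP values lay above all control values, both differences had to be positive.

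The profile of Slc30a2 over the 6 arrays was most like that of Gm36560, a predicted gene (Pearson r = 0.998), Tmem213 (0.990), Pde6c (0.990), which encodes a subunit of the cone phosphodiesterase, and Tmem52 (0.985). These were the highest of 11103 genes compared. The 6 arrays share 2 groups, so such an r also holds the difference between the groups, and it is given as a description. The log2 differences of these genes were smaller, at 0.26 for Gm36560, 0.32 for Tmem213, 0.25 for Pde6c and 0.55 for Tmem52.

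The other exporters had PNP and control values that overlapped. Slc30a1 encodes ZnT1, the exporter of the plasma membrane and an MTF1 target. Its scaled log2 signal was 0.06, -0.30 and 0.19 on PNP arrays, against 0.01, -0.18 and 0.25 on control arrays, with the spots of control arrays 1 and 2 marked as outliers. PNP array 2 was the lowest and control array 3 the highest, so the spread within groups (SD 0.25 with PNP, 0.22 in controls) exceeded the difference of the means, -0.04. Slc30a4 encodes ZnT4, a vesicular exporter whose loss gives the lethal milk mouse. It had 2.09, 2.01 and 2.00 on PNP arrays, against 2.08, 1.99 and 2.04 on control arrays, a difference of -0.0028 with 3 spots marked as outliers. Its 6 values were the tightest of the set.

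ZnT5 and ZnT6, encoded by Slc30a5 and Slc30a6, pair to bring zinc into the early secretory pathway, where ZnT7, encoded by Slc30a7, also acts. Slc30a5 had -0.44, -0.18 and -0.28 on PNP arrays, against -0.20, -0.36 and -0.37 on control arrays, a difference of 0.0097 (95% interval -0.24 to 0.26). A second Slc30a5 probe, left out because 4 of its 6 spots were marked as outliers, differed by -0.11. It had 1.33, 1.39 and 0.94 on PNP arrays, against 1.26, 1.36 and 1.38 on control arrays, so PNP array 3 alone lay below the controls. Slc30a6 had 0.91, 0.77 and 0.68 on PNP arrays, against 0.91, 0.78 and 0.79 on control arrays, and differed by -0.04 (-0.27 to 0.19). Slc30a7 had all 6 spots marked as outliers. With them it showed 0.12, -0.06 and 0.34 on PNP arrays, against 0.12, -0.22 and 0.57 on control arrays, so control arrays 2 and 3 spanned all other values.

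Slc30a9 encodes ZnT9, which exports zinc from mitochondria. The probe used had 0.15, 0.05 and 0.18 on PNP arrays, against 0.02, 0.22 and 0.18 on control arrays, a difference of -0.0087 (95% interval -0.23 to 0.22). A second Slc30a9 probe differed by 0.03, with SDs of 0.07 with PNP and 0.03 in controls. The groups overlapped for both probes. The remaining family members were mostly not detected. Slc30a8, which serves insulin granules, and Slc30a10, a manganese exporter, were above background on no array, and Slc30a3, which loads synaptic vesicles, on at most 1.

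Mt1 and Mt2 are neighbouring genes on chromosome 8. Sequence around their annotated starts is shown because both metallothioneins were lowest on array 2 of each group. That order was seen in 13.5% of genes with all values, and a link between sequence and signal was not tested. The 300 bases from 250 before to 50 after each annotated start (RefSeq, GRCm38.p6) were searched on both strands for the core of the metal response element, spelled TGCACNC or TGCGCNC. Mt2 held 4 matches and Mt1 held 3, while 0.517% of 32851 such windows held at least 4 and 1.97% at least 3. No match overlapped another in these windows. The 250 bases before the Mt2 start (chr8:94172368-94172617, + strand) are given with the 3 matches that lie in them in capitals, on either strand.
Mt2: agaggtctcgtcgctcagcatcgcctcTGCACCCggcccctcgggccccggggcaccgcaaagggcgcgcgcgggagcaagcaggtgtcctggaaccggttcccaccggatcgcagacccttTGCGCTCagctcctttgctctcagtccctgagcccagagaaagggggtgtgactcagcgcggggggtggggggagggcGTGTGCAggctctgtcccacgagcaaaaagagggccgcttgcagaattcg

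For Mt1, Slc30a1 and Slc30a2 the start used lies 206, 84 and 420 bases after the start of the gene's annotated span. All matches of these genes lie inside that span. Only short stretches around matches are therefore shown, again with the core in capitals. They let the cores of a metallothionein, of the exporter known as an MTF1 target and of Slc30a2 be set side by side. The Mt1 stretches are chr8:94179056-94179082 and chr8:94179099-94179125 (+ strand), that of Slc30a1 is chr1:191906728-191906754 (+ strand), and those of Slc30a2 are chr4:134343242-134343268 and chr4:134343256-134343282 (+ strand).
Mt1, first match: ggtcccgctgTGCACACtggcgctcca
Mt1, last match: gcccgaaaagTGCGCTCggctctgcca
Slc30a1, first match: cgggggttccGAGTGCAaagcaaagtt
Slc30a2, first match: ccatcgtcccGCGCGCAacttcgaggg
Slc30a2, second match: gcaacttcgaGGGCGCAccgagagagg

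Slc30a1 and Slc30a2 held 2 matches each, on the strand opposite to the gene, and 7.11% of windows held at least 2. Slc30a4 held 3 and Slc30a5 held 1, and Slc30a6, Slc30a7, Slc30a9 and Mtf1 held 0, where 25.7% of windows held at least 1. A match is a run of letters and not a shown binding site.

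**Figure D3:**
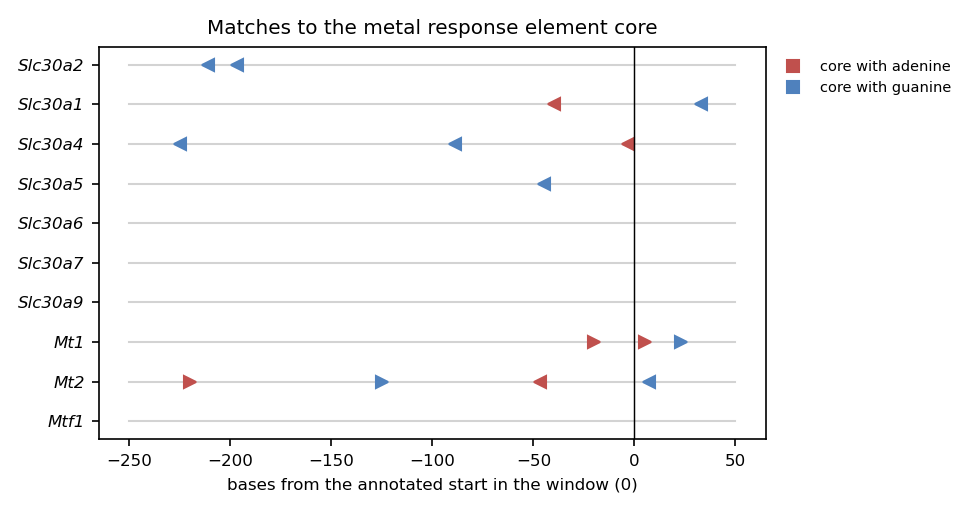
Matches to the metal response element core in the 10 members' windows, by distance in bases from the annotated start (horizontal axis, 0 is the start). Triangles pointing right lie on the gene's strand and those pointing left on the opposite strand, and colours give the form of the core. Mt2 holds 4 matches, Mt1 and Slc30a4 hold 3 each, and Slc30a2 holds 2. Every match of Mt1, Slc30a1, Slc30a2 and Slc30a5 lies inside the gene's annotated span.

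Mt1 had scaled log2 signals of 3.11, 2.61 and 2.90 on PNP arrays, against 2.96, 2.58 and 2.87 on control arrays. Mt2 had 3.01, 2.68 and 2.88 on PNP arrays, against 2.82, 2.45 and 2.89 on control arrays. For both genes PNP array 2 was the lowest of its group and control array 2 the lowest of its group, and PNP array 1 was the highest of all. This order, lowest on array 2 of both groups, was seen in Mt1 and Mt2 of the 7 fitted members and in 1503 of 11110 genes with all values (13.5%). Means were 2.88 ± 0.25 with PNP and 2.81 ± 0.20 in controls for Mt1, and 2.86 ± 0.17 with PNP and 2.72 ± 0.23 in controls for Mt2 (SD, n = 3 each). The log2 difference was 0.07 (95% interval -0.29 to 0.42) for Mt1, and it turned to -0.03 after quantile normalization and to -0.02 in the authors' deposited normalized values. It was 0.14 (-0.19 to 0.47) for Mt2, with 0.05 in each of those settings. For both genes the difference was smaller than the SD within either group.

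Within slide columns control array 2 stood alone in even columns and PNP array 2 alone in odd ones, so the values restate that these arrays were the lowest of their groups. In even columns Mt1 averaged 3.01 with PNP (n = 2) and 2.58 in the control (n = 1), and in odd columns 2.61 with PNP (n = 1) and 2.92 in controls (n = 2). Mt2 averaged 2.95 with PNP and 2.45 in the control in even columns, and 2.68 with PNP and 2.85 in controls in odd columns. With slide column as a block in the fit the difference was 0.06 for Mt1 and 0.17 for Mt2. Single arrays moved these values. The Mt1 difference was -0.04 without control array 2, -0.05 without PNP array 1, 0.15 without control array 1 and 0.20 without PNP array 2. The Mt2 difference was 0.01 without control array 2, 0.07 without PNP array 1, 0.23 without control array 3 and 0.23 without PNP array 2.

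Over the 6 arrays Mt1 and Mt2 had Pearson r = 0.91 (exact permutation p = 0.00833, two-sided) and Spearman rho = 0.77 (exact permutation p = 0.103). Among the 21 pairs of the 7 fitted members this was the highest r, and after Benjamini-Hochberg adjustment over the pairs the exact permutation p was 0.175 for r and 0.830 for rho. Without control array 2 and PNP array 2, the farthest from the median of Mt1, r was 0.74 over 4 arrays. Taken as deviations from the group means, r was 0.92. Too few arrays lay in either kind of slide column to give r within it. The files hold no probe sequences, so signal shared between probes of these paralogs was not examined. Mt1 and Slc30a2 had r = 0.34, and Mt2 and Slc30a2 had r = 0.42.

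**Figure D4:**
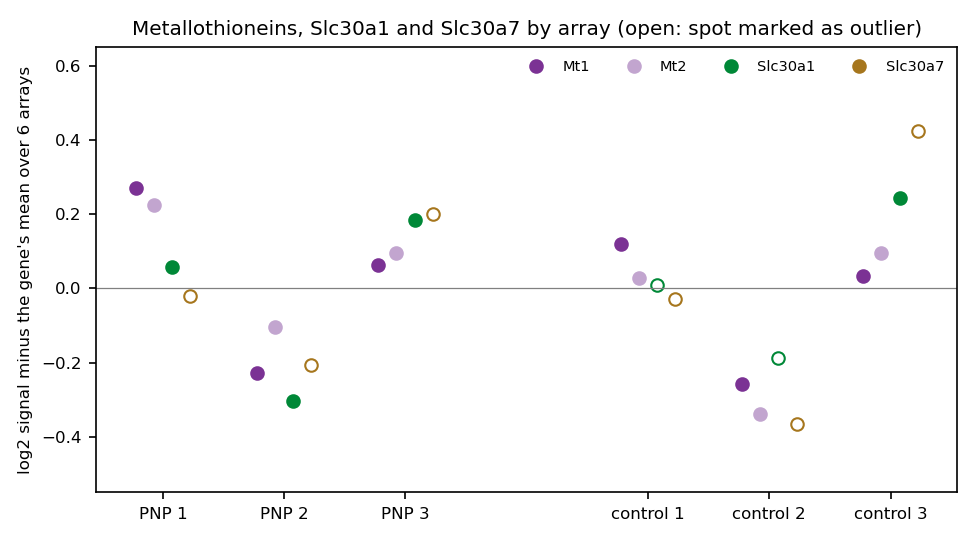
Scaled log2 signal of Mt1, Mt2, Slc30a1 and Slc30a7 on each array minus the gene's own mean over the 6 arrays (vertical axis, log2 units), PNP left and control right. Points within an array are set apart sideways for legibility, and open points are spots marked as outliers. The 4 genes were chosen after their values were seen, as those lowest in each group on array 2, and the other 6 members do not share this order.

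Mtf1 had 3 probes, with no spot marked as an outlier. The one used in the fit had 0.40, 0.44 and 0.24 on PNP arrays, against 0.40, 0.33 and 0.42 on control arrays, a difference of -0.02 (95% interval -0.24 to 0.20). A second probe differed by -0.04. The last had -1.20, -0.25 and -0.83 on PNP arrays, against -0.53, -0.68 and -0.59 on control arrays. On it PNP arrays 1 and 3 lay below and PNP array 2 above every control, so the SD was 0.48 with PNP and 0.08 in controls around a difference of -0.16. All 3 probes had overlapping groups.

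Across all genes limma called 0 of 13138 (0%) at an adjusted p of 0.05, and 856 (6.52%) had an unadjusted p below it, 5.02% higher and 1.49% lower. With 1 array left out it called 23 genes without PNP array 1, 1 without PNP array 2, 2 without control array 1, 6 without control array 2 and 5 without control array 3. Of the 7 fitted members 0 were called in any of these fits. The median log2 difference of the 7 members was 0.0097, with 4 positive and 3 negative, against 0.04 over all genes, with 8272 positive and 4866 negative. For 1 of the 7, Slc30a2, the groups did not overlap, and over all genes this held for 1762 (13.4%), 9.66% higher and 3.75% lower. The rule that chose the set used this contrast, so nothing is read from these counts.

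Genes of the zinc pathway outside the set were tested in the same fit. Of 14 zinc importers 7 were fitted and 0 were called in either direction, and 0 had an unadjusted p below 0.05, with 5 positive and a median difference of 0.03, which was -0.03 after median scaling. Slc39a3 encodes ZIP3, an importer of the plasma membrane. It had -1.44, -1.04 and -1.13 on PNP arrays, against -1.11, -0.89 and -0.97 on control arrays, a difference of -0.21 (SE 0.13, limma adjusted p = 0.869). Slc39a7 encodes ZIP7, which releases zinc from the endoplasmic reticulum. It had 3.30, 3.04 and 2.98 on PNP arrays, against 3.01, 2.81 and 2.96 on control arrays, a difference of 0.18 (SE 0.12, limma adjusted p = 0.878). The groups overlapped for both.

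Other MTF1 targets, among them the importer gene Slc39a10 that is also in the list before, were all fitted, and 0 of 7 were called, with 6 negative and a median of -0.05, which was 0.0031 with outlier spots kept. Ndrg1, a gene of stress and hypoxia, differed by 0.16 (SE 0.11) and Pgf, a placental growth factor, by -0.31 (SE 0.21), each with a limma adjusted p of 0.878. Pgf was -2.35 on PNP array 2 and -3.03 and -3.17 on the other PNP arrays, around controls of -2.71 to -2.42. A list of 8 enzymes that acquire their metal in the secretory pathway had 6 fitted and 0 called. It was drawn up for zinc enzymes but also holds Lox, the copper enzyme lysyl oxidase, which differed by 0.11. Alpl, the tissue-nonspecific alkaline phosphatase that needs ZnT5 to ZnT7 for its zinc, had the smallest p of the list. It had -4.53, -4.26 and -4.46 on PNP arrays, against -4.80, -4.51 and -5.20 on control arrays, a difference of 0.42 (SE 0.17, limma adjusted p = 0.747). PNP array 1 lay just below control array 2, so the groups overlapped, and control array 3 was far below the others. Car9, a carbonic anhydrase, differed by -0.53 (SE 0.24, limma adjusted p = 0.791) with 2 PNP values.

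Copper genes were read because metallothioneins also bind copper. Of 9 genes 8 were fitted and 0 called, with 4 positive and 4 negative. For 2 of the 8 the groups did not overlap, which over all genes held for 13.4%, and 1 of these, Sco1, had only 2 values per group. Atox1, a chaperone that hands copper to the copper pumps, had 3.09, 3.03 and 2.88 on PNP arrays, against 2.83, 2.86 and 2.78 on control arrays. It differed by 0.18 (SE 0.10, limma adjusted p = 0.845). Sco1, which brings copper to cytochrome c oxidase, had -0.67 on both usable PNP arrays, against -0.53 and -0.29 on the usable control arrays. It differed by -0.26 (SE 0.14, limma adjusted p = 0.845). Mt3, the one further metallothionein detected, differed by 0.14 (SE 0.24, limma adjusted p = 0.957), with control array 3 at -3.53 below all others, and Mt4 was above background on no array.

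**Figure D5:**
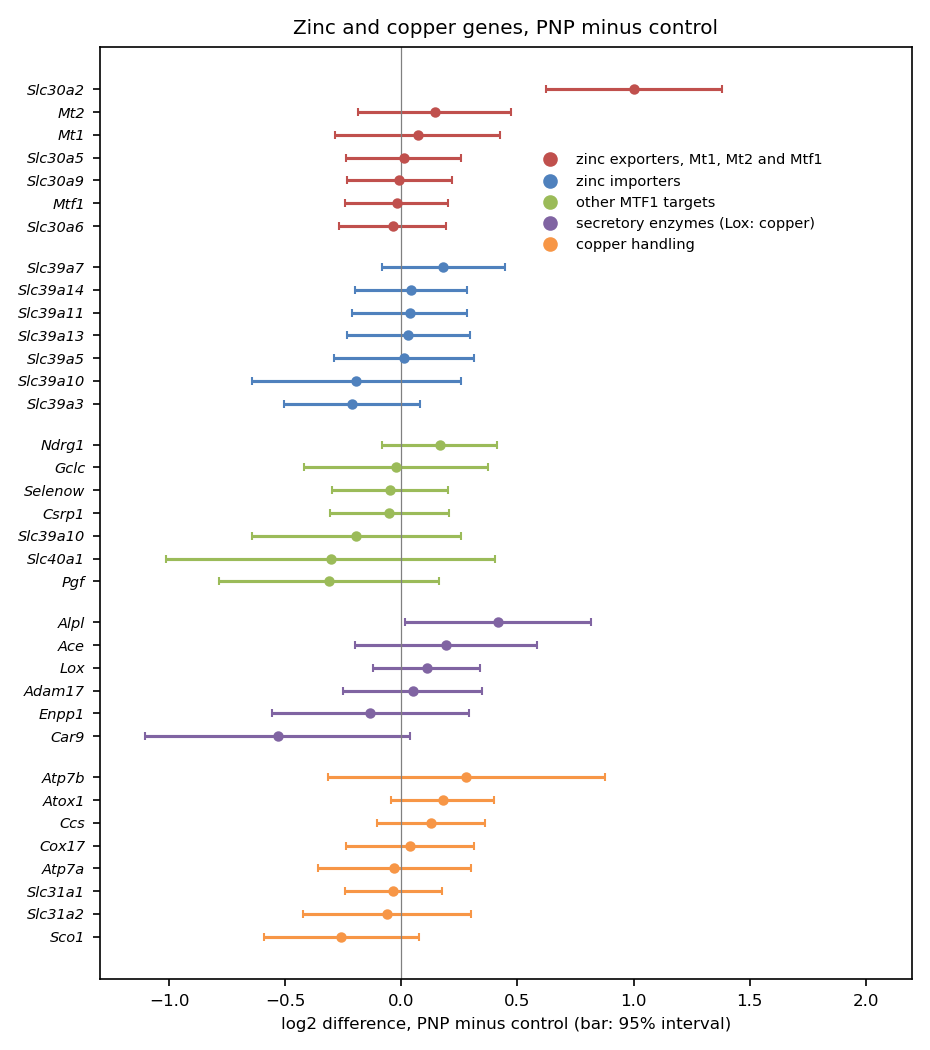
Log2 difference, PNP minus control (horizontal axis, points), with its 95% interval (bars) for every fitted gene of 5 lists, grouped by colour. Slc30a2 stands at 1.00, the value that chose the set, and the other 6 members lie between -0.04 and 0.14.

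Markers read beside these lists had no call. The smallest p-values per list belonged to Star (-0.33) and Nr5a1 (0.22) for Leydig cells, Sox9 (0.24) and Rhox5 (-0.11) for Sertoli cells, Tnp1 (-0.67) for germ cells, and Cd68 (0.32) and Csf1r (0.12) for macrophages. Their limma adjusted p-values ran from 0.740 for Sox9 to 0.961 for Rhox5. The groups did not overlap for 1 of 3 fitted Leydig markers, Nr5a1, and 1 of 2 fitted Sertoli markers, Sox9. Both were higher with PNP, and over all genes the groups did not overlap for 13.4%. For the fitted germ cell and macrophage markers the groups overlapped.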

How the data were processed

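The 6 scanner files hold intensity values deposited by the authors, made with Agilent Feature Extraction 11.5.1.1 per the file headers, while the submitters' processing notes name version 10.7. Per the file headers the processed signal was corrected for background and trends within an array, with no scaling between arrays. The labels name the dye Cy3, and the deposited files hold red-channel columns. Log2 values in the authors' deposited table had equal quantiles in every column (median 8.27) and were not centred by gene; their normalization method is not stated. Each of its columns correlated best with its own array (r at least 0.9996).

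With R 4.3.3 and limma 3.58.1, log2 processed signals were scaled on the 75th percentile over non-control probes. Spots marked as outliers were left out of the fit and kept in the summed marker signals. A probe was tested if well above background on all 3 arrays of a group and with at least 2 values per group, and each gene took its brightest tested probe. RefSeq accessions (GRCm38.p6) named 33767 of 56605 probes. The test was lmFit with eBayes, PNP minus control, two-sided, with Benjamini-Hochberg adjustment over 13138 genes at 0.05. It was also run on simulated data with the same noise for every gene and planted shifts larger than the Slc30a2 difference. That run does not show how small a change the fit could call. The number of arrays limits the precision. Named genes are all members, the 2 of smallest p in each other list and the 4 most like Slc30a2. Outside this rule, Slc39a10 and Lox are named for their place in a list. Other genes are named only for being above background or not, or for having no named probe. Members and lists were chosen with earlier results of these data known. The normexp alternative used median spot signals (offset 50) in place of the planned mean signals. Promoter letters come from RefSeq windows of GRCm38.p6.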

Additional observations from a re-analysis of the deposited data

How the results depend on the processing

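Over 15 alternatives the Slc30a2 difference ran from 0.80 (normexp background correction) to 1.103 (without PNP array 3), and it was 0.83 without PNP array 1 and 0.93 after quantile normalization. The count of genes called over the whole table was 0 in the fit reported and ran from 0 to 23 when 1 array was left out. It was 1 with slide column as a block and 0 with the replicate block. Deviations from the group means of same-numbered arrays correlated at -0.31, -0.22 and -0.03 over 11110 genes. Arrays of other numbers in the same kind of slide column correlated at 0.24 (PNP 1 with control 2) and 0.27 (PNP 2 with control 1). The remaining such pairs had 0.04 (PNP 3 with control 2) and 0.0078 (PNP 2 with control 3). Same-numbered arrays lay in opposite kinds of slide column, so these values cannot tell whether same-numbered samples were paired. With the replicate block 605 genes had an unadjusted p below 0.05, against 856 without it. The 4 tested lists of zinc and copper genes had 0 calls in all 15 alternatives. The median difference of the members lay between -0.05 and 0.06, changing sign with the setting. Differences of Slc30a5, Slc30a6, Slc30a9, Mt1 and Mtf1 also changed sign among the 15 alternatives, and those of Slc30a2 and Mt2 were positive in all 15. Dim probes and 3 arrays per group limit what could be seen, and Slc30a2 rests on 1 probe.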
